A study of Mus musculus with 10 samples.

Results

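Voltage-gated sodium channel genes were followed in the hippocampus of mice treated to ablate the lymphatic vessels of the meninges. The members are the rows of the deposited gene table whose Ensembl ID has the symbol Scn1a, Scn2a, Scn3a or Scn8a, which encode pore-forming alpha subunits, or Scn2b, Scn3b or Scn4b, which encode beta subunits. All 7 were found among the 27343 genes of the table, and all 7 passed the filter on low counts that left 15938 tested genes. The list was set by gene name, and it was chosen with earlier results of these data known.

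The treated mice were wild-type C57BL/6J males, 2 months old, that received Visudyne, an injectable form of the photosensitizer verteporfin, into the cisterna magna. Controls of the same strain, sex, age and genotype received vehicle. In both groups red light of 689 nm was then shone on the intact skull, the procedure was done again 2 weeks later, and the Morris water maze, a test of spatial learning, followed after another 2 weeks. The whole hippocampus was taken 3 days after the maze, and each group had 5 libraries. All mice had thus been through surgery, light and the maze, and ablation of the vessels is a statement of the study design for which the table holds no measurement.

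A voltage-gated sodium channel opens when the membrane depolarizes and carries the inward current of the action potential. The alpha subunit forms the pore and the voltage sensor, and beta subunits are small membrane proteins with an immunoglobulin-like domain that change channel gating, help bring channels to the surface and act in cell adhesion. In brain, Scn2a is prominent in excitatory neurons and in unmyelinated axons, Scn8a is the main alpha gene of the mature axon initial segment and node of Ranvier, Scn1a is known for its role in parvalbumin interneurons, and Scn3a is most abundant before birth. Scn2b and Scn4b encode subunits that join alpha subunits through a disulfide bond, while the product of Scn3b binds without one.

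Total counts were 34548474 to 36956138 in the 5 Visudyne libraries and 24752362 to 41073906 in the 5 vehicle libraries. Levels are given as CPM, in which counts are brought to 1 library size through TMM factors, and a gene was called changed at a Benjamini-Hochberg adjusted p under 0.05 in the edgeR quasi-likelihood test over all 15938 genes. Of these, 3261 or 20.5% were called, 8.98% higher and 11.5% lower in Visudyne. The libraries differed in how abundance depended on the GC content of the gene: the slope of log2 CPM on GC averaged -0.20 ± 0.205 per 10 percentage points in Visudyne and 0.20 ± 0.162 in vehicle (SD, n = 5 each; exact two-sided permutation p = 0.0159, the smallest possible being 0.00794). GC content and group move together, and their parts in a difference cannot be told apart. Markers of hippocampal principal neurons were present, but not all at like levels in the groups. Prox1 of dentate granule cells stood at 105.1 ± 32.1 CPM for Visudyne and 105.9 ± 5.29 CPM for vehicle, while Slc17a7, which encodes the vesicular glutamate transporter of these neurons, stood at 33.83 ± 11.4 CPM for Visudyne and 70.93 ± 24.6 CPM for vehicle (SD, n = 5 each). Slc17a7 fell to 0.477 of its vehicle level (adjusted p = 0.0274) and was also called with the GC trend removed (log2 fold change -0.69, adjusted p = 0.0467). Both are named after their values were seen, and all 10 genes of the list of pyramidal and granule neuron markers were detected. The list did not move as 1: 1 of the 10 was called higher and 4 lower, with a median log2 fold change of -0.37. With the GC trend removed 0 were called higher and 1 lower, which was Slc17a7, where 3.17% of all tested genes were called. The list's median was then 0.04.

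The alpha genes are close relatives, and this bears on how reads are assigned. Scn3a, Scn2a and Scn1a lie in that order on GRCm38 chromosome 2, at 65457118 to 65567627, 65620771 to 65767447 and 66270778 to 66440840, with 53.14 kb between the first pair. Scn8a lies on chromosome 15 at 100869858 to 101045938. The coding sequences of Scn1a, Scn2a and Scn3a were 81.9% to 83.9% identical where aligned, and each was 74.9% to 75.3% identical to that of Scn8a. The longest identical run was 188 bases between Scn1a and Scn2a and 143 between Scn3a and either of them, against 32 to 55 between Scn8a and the other alpha genes. A read that lies within such a run cannot be placed on 1 of the genes that share it. Over the whole transcripts such stretches are a minority. Of the distinct 31-base words in the annotated transcripts, 6.65% of those of Scn1a, 8.13% of Scn2a, 8.31% of Scn3a and 0.333% of Scn8a also occur in another of the 7 genes, against 0 for each of the 3 beta genes. Counts of Scn1a, Scn2a and Scn3a are therefore estimates that the authors' counting could have split among them. Other genes annotated on the opposite strand within Scn1a, Scn2b, Scn3a and Scn3b share 0 exonic bases with them.

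Per kilobase of exon, Scn3b, Scn2a and Scn2b RNA were the most abundant and Scn4b the least in both groups. In Visudyne the levels were 48.97 ± 3.95 CPM per kb for Scn3b, 44.43 ± 3.65 for Scn2a, 34.04 ± 2.54 for Scn2b, 17.68 ± 1.06 for Scn1a, 9.55 ± 0.626 for Scn8a, 8.07 ± 0.916 for Scn3a and 1.75 ± 0.273 for Scn4b (SD, n = 5). In vehicle they were 54.28 ± 5.02 CPM per kb for Scn3b, 39.88 ± 2.34 for Scn2b, 35.07 ± 2.53 for Scn2a, 16.82 ± 1.55 for Scn1a, 10.19 ± 0.887 for Scn8a, 6.93 ± 0.332 for Scn3a and 2.79 ± 0.328 for Scn4b (SD, n = 5). Among neighbours in the order, the ranges of Scn3b and Scn2a and those of Scn8a and Scn3a overlapped in Visudyne, and those of Scn2b and Scn2a overlapped in vehicle. The 2nd and 3rd places were taken by different genes in the groups: per kilobase, Scn2a exceeded Scn2b in 5 of 5 Visudyne libraries and in 1 of 5 vehicle libraries. With the longest transcript in place of all exons as the length, Scn2a was above Scn2b in both groups, at 63.32 against 34.04 CPM per kb in Visudyne and 49.97 against 39.88 in vehicle, so this switch depends on the length used.

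**Figure D1:**
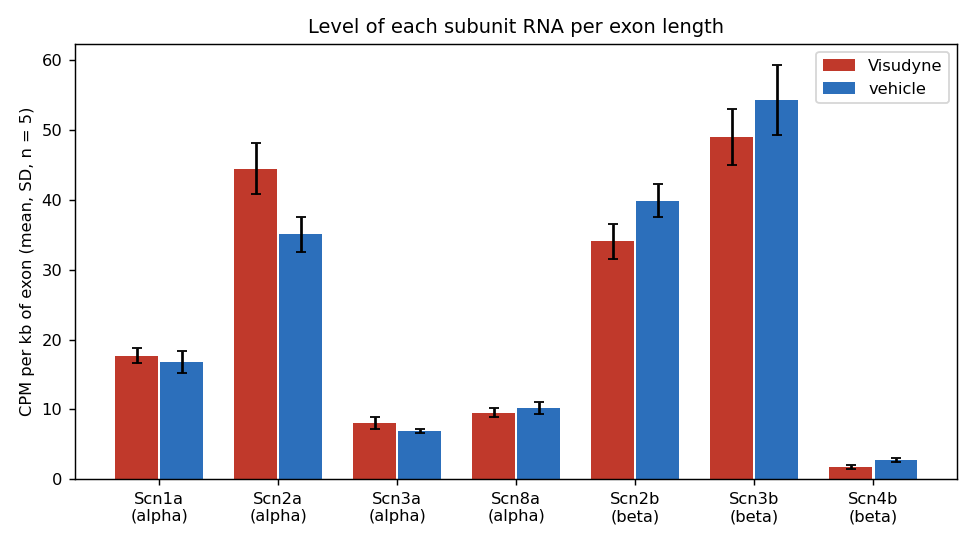
Level of the 7 subunit RNAs in CPM per kilobase of exon, as bars from 0 for the group mean with SD over 5 libraries, Visudyne left of vehicle. Scn3b stands highest, at 48.97 in Visudyne and 54.28 in vehicle, and Scn4b lowest, at 1.75 and 2.79.

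Among the alpha genes Scn2a supplied more of the RNA in Visudyne than in vehicle, and Scn8a less. Per kilobase, Scn2a made up 53.9% to 57.9% of the summed alpha level in the Visudyne libraries and 47.5% to 53.3% in the vehicle libraries. Scn8a made up 11.01% to 13.0% in Visudyne and 13.2% to 17.5% in vehicle. Neither pair of ranges overlaps. Scn1a made up 20.6% to 22.9% in Visudyne and 22.4% to 26.2% in vehicle. Scn3a made up 9.25% to 10.7% in Visudyne and 9.28% to 11.04% in vehicle. Once each library's GC trend was removed, Scn2a made up 53.4% to 57.03% in Visudyne and 49.02% to 53.3% in vehicle. Scn8a then made up 12.04% to 14.2% in Visudyne and 12.6% to 14.4% in vehicle, so its lower share was no longer seen. These shares are scores over the members and carry no test.

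Between the groups, 1 of the 7 genes was called higher in Visudyne and 2 were called lower, or 3 of 7 against a background of 20.5% of all tested genes. Scn2a rose 1.27-fold, while Scn2b fell to 0.854 and Scn4b to 0.627 of the vehicle level. Scn1a, Scn3a, Scn8a and Scn3b were not called. The same 3 genes were the ones whose groups did not overlap, which held for 12.5% of all tested genes, 5.25% with Visudyne above and 7.22% with Visudyne below. In bulk tissue a lower level of a gene can come from fewer cells that express it or from less RNA per cell, and the table cannot tell these apart.

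**Figure D2:**
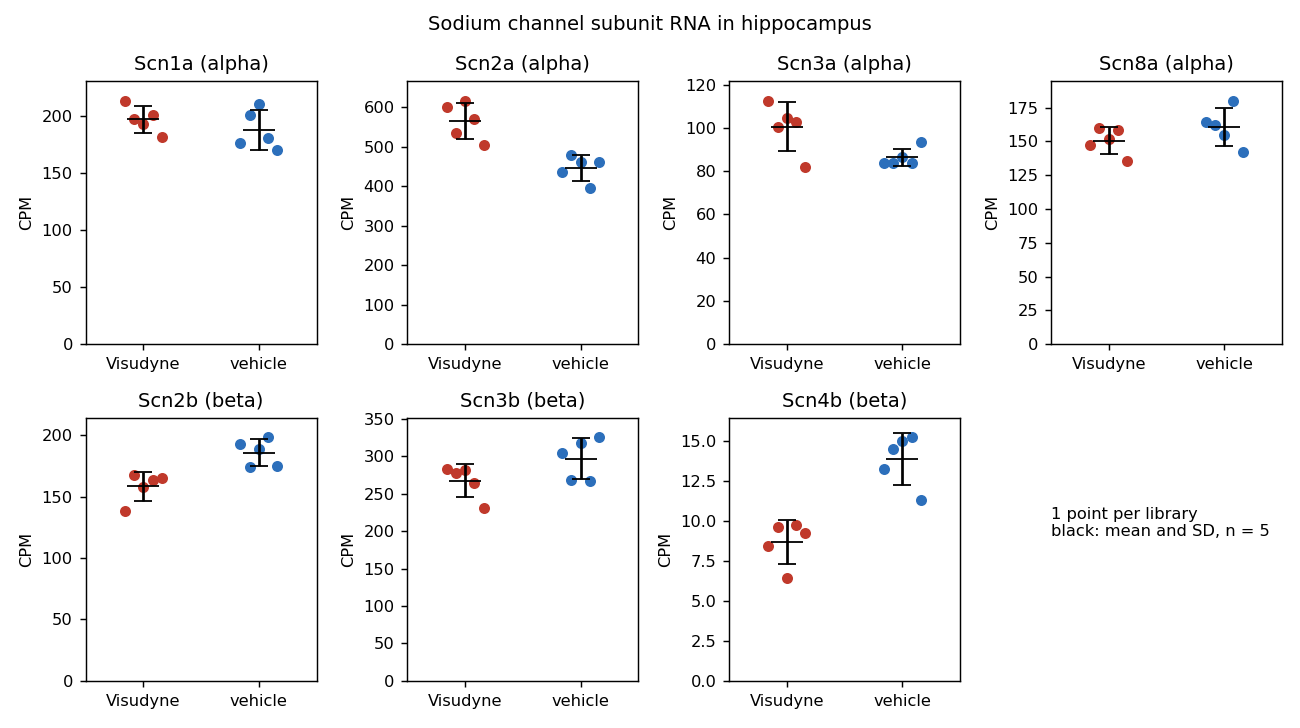
CPM of each subunit RNA, with 1 point per library, Visudyne left of vehicle, and the mean with its SD in black (n = 5 each). The groups are apart for Scn2a, Scn2b and Scn4b and overlap for the other 4 genes.

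Scn2a (ENSMUSG00000075318) stood at 601.5, 535.5, 617.3, 570.1 and 504.2 CPM in Visudyne 1 to 5, against 435.5, 478.2, 461.8, 395.9 and 461.1 CPM in vehicle 6 to 10. Every Visudyne library was above every vehicle library, and the lowest, Visudyne 5, was 504.2 CPM where the highest vehicle library was 478.2. Means with their SD over 5 libraries were 565.7 ± 46.51 CPM for Visudyne and 446.5 ± 32.17 CPM for vehicle. The log2 fold change was 0.34 (SE 0.073, 95% interval 0.18 to 0.50, edgeR adjusted p = 0.0234). The call is lost without Visudyne 3 (adjusted p = 0.0649), vehicle 6 (0.0707) or vehicle 9 (0.05001). Without Visudyne 3 only 0.167% of all tested genes were called, and without vehicle 6 only 0.0622%. Scaling by total counts alone put the all-gene median log2 fold change at -0.19, against 0.01 with TMM, and Scn2a was at 0.13 (adjusted p = 0.0613), which is 0.33 above that median under either scaling. With each library's trend on GC content removed, 3.17% of all tested genes and 0 of the 7 members were called. Scn2a then had a log2 fold change of 0.14 (adjusted p = 0.196), with 5 of 5 Visudyne libraries above the vehicle mean and ranges that overlap.

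Scn3a (ENSMUSG00000057182) was at 112.7, 100.6, 104.7, 103.0 and 81.88 CPM in Visudyne 1 to 5 and at 83.93, 83.95, 86.5, 83.93 and 93.5 CPM in vehicle 6 to 10. In 4 Visudyne libraries it was above every vehicle library, and Visudyne 5 was below all of them. The log2 fold change was 0.22 (SE 0.078, 95% interval 0.05 to 0.39, adjusted p = 0.061), which misses the threshold. Without Visudyne 5 it was 0.28 and called (adjusted p = 0.00961). It was -0.03 with the GC trend removed, and this gene has the lowest GC content of the 7, 41.93%.

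Scn1a (ENSMUSG00000064329) lay between 181.1 and 213.4 CPM in Visudyne, with a median of 197.3, and between 169.7 and 210.2 CPM in vehicle, with a median of 180.4. The groups overlapped almost entirely, and the log2 fold change was 0.07 (95% interval -0.08 to 0.23, adjusted p = 0.47). It was -0.14 with the GC trend removed, where 5 of 5 Visudyne libraries were below the vehicle mean (adjusted p = 0.265), and -0.13 with total counts in place of TMM, or 0.06 above the median of all tested genes under either scaling. Scn8a (ENSMUSG00000023033) lay between 135.5 and 160.1 CPM in Visudyne, with a median of 151.9, and between 141.9 and 180.2 CPM in vehicle, with a median of 162.4. Its log2 fold change was -0.09 (95% interval -0.25 to 0.06, adjusted p = 0.339), and 0.04 with the GC trend removed. With total counts in place of TMM it was -0.31 and called, and relative to the median of all tested genes it was -0.11 there and -0.10 with TMM. The GC content of Scn8a is 51.55%, against 43.53% for Scn2a.

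The beta genes all stand on chromosome 9. Scn2b, at 45117782 to 45130070, and Scn4b, at 45138395 to 45154152, are on the same strand with 8.32 kb between them, and Scn3b lies at 40269217 to 40291618. Their coding sequences were 59.4% to 61.1% identical where aligned, and no run longer than 13 bases was the same in any pair, so reads are not shared as they are among the alpha genes. The promoters of Scn2b and Scn4b are shown because these neighbours are the 2 genes called lower. Both are from RefSeq on GRCm38.p6, + strand, from 250 bases before to 50 after the annotated start, and capitals mark the CG pairs. Of the 7 genes, 5 had a promoter in that table, and Scn3a and Scn3b had none.
Scn2b, chr9:45117626-45117925: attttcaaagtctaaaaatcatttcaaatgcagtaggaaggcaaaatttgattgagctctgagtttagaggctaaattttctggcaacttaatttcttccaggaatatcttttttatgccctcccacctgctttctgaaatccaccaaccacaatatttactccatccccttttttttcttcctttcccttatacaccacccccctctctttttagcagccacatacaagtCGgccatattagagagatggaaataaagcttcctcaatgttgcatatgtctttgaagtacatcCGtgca
Scn4b, chr9:45138374-45138673: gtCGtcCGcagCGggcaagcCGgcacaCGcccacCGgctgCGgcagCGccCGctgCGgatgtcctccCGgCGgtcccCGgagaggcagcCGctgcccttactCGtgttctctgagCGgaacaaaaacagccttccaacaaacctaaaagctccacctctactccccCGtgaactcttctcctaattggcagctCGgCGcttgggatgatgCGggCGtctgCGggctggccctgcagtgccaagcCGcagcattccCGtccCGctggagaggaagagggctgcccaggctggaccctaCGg
The Scn2b promoter had 38.3% GC and 2 CG pairs, and that of Scn4b 66.3% GC and 26 CG pairs, where the median of 32851 promoters was 52.7% GC and 7 CG pairs. The letters TATAAA, found in 13.6% of these promoters on either strand, and GGGCGG, found in 35.7%, were in neither, and CCAAT, found in 37.4%, was in that of Scn4b alone. These adjacent genes had promoters of different base composition.

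Scn4b (ENSMUSG00000046480), the least abundant member, had 202 to 354 counts in the Visudyne libraries and 287 to 664 in the vehicle libraries. It stood at 8.48, 9.61, 6.45, 9.78 and 9.23 CPM in Visudyne 1 to 5, against 13.26, 14.51, 15.04, 15.26 and 11.3 CPM in vehicle 6 to 10. All Visudyne libraries were below all vehicle libraries, with Visudyne 3 the lowest and vehicle 10 the nearest to the other group. Means with their SD over 5 libraries were 8.71 ± 1.36 CPM for Visudyne and 13.88 ± 1.63 CPM for vehicle. This gave a log2 fold change of -0.67 (SE 0.12, 95% interval -0.93 to -0.41, adjusted p = 0.0201). This is the largest fold change among the 7 genes under each of the 22 alternative settings as well. The call is lost without Visudyne 3 (adjusted p = 0.0559) or vehicle 6 (0.0659), and the log2 fold change ran from -0.74 to -0.58 over the 10 fits that leave out a library. The log2 fold change was -0.39 (adjusted p = 0.0775) once the GC trend was removed and -0.47 with the slope of the library on GC as covariate (adjusted p = 0.714).

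Scn2b (ENSMUSG00000070304) was at 138.3, 167.5, 157.8, 163.9 and 164.9 CPM in Visudyne 1 to 5, against 192.8, 173.8, 188.5, 198.3 and 174.9 CPM in vehicle 6 to 10. The groups do not overlap, but 167.5 CPM in Visudyne 2 and 173.8 CPM in vehicle 7 are close. Means with their SD over 5 libraries were 158.5 ± 11.84 CPM for Visudyne and 185.7 ± 10.91 CPM for vehicle. This gave a log2 fold change of -0.23 (SE 0.066, 95% interval -0.37 to -0.09, adjusted p = 0.0356). This call was the least stable of the 3, being lost without Visudyne 1, 3 or 4 or vehicle 6, 8 or 9, at adjusted p = 0.0565 to 0.0881, and without a filter on low counts. The log2 fold change was -0.16 (adjusted p = 0.107) once the GC trend was removed and -0.03 with the slope as covariate.

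Scn3b (ENSMUSG00000049281) was at 282.8, 277.3, 281.4, 264.5 and 231.1 CPM in Visudyne 1 to 5 and at 304.1, 268.7, 317.6, 266.3 and 325.3 CPM in vehicle 6 to 10. Vehicle 7 and 9 lay among the Visudyne values. The log2 fold change was -0.15 (SE 0.078, 95% interval -0.32 to 0.02, adjusted p = 0.174). It was -0.17 after removal of the GC trend and -0.33 with the slope as covariate, where its unadjusted p was 0.0044 and its adjusted p 0.557. Scn3b is the member whose value was not brought nearer to 0 by either of these settings.

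**Figure D3:**
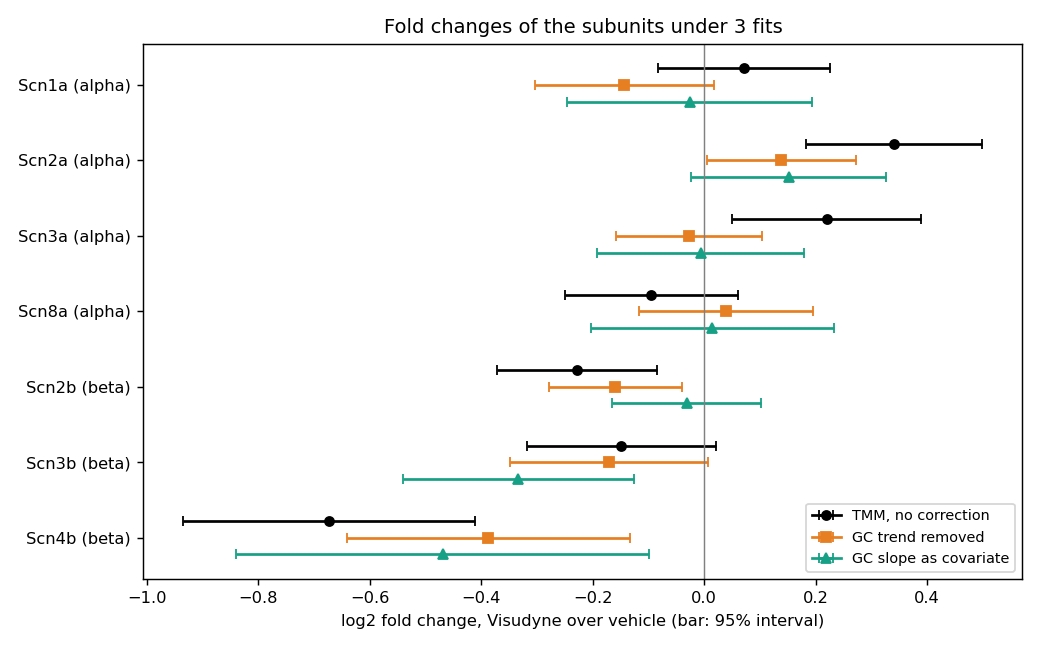
Log2 fold change, Visudyne over vehicle, of each subunit RNA with its 95% interval in 3 edgeR fits: TMM alone, with each library's GC trend removed, and with its GC slope as covariate. Scn2a is at 0.34, 0.14 and 0.15, and the estimates of the 3 beta genes are below 0 in all 3 fits. With the slope as covariate the intervals of Scn2a and Scn2b span 0, and in the other fits that of Scn3b does.

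Set against each other, the alpha genes stood higher relative to the beta genes in Visudyne, though only Scn2a of the 4 alpha genes was called and Scn8a was below the vehicle mean in 5 of 5 Visudyne libraries. The mean log2 CPM of the 4 alpha genes minus that of the 3 beta genes was 1.63, 1.41, 1.66, 1.47 and 1.33 in Visudyne 1 to 5, and 0.97, 1.11, 0.97, 0.96 and 1.05 in vehicle 6 to 10. No Visudyne library was as low as any vehicle library. The group means were 1.499 ± 0.141 in Visudyne and 1.01 ± 0.0669 in vehicle (SD, n = 5 each), and the difference of the fitted fold changes was 0.48. The mean log2 CPM of the beta genes was 6.16 ± 0.087 in Visudyne and 6.51 ± 0.065 in vehicle, and that of the alpha genes 7.66 ± 0.105 in Visudyne and 7.53 ± 0.0419 in vehicle (SD, n = 5 each). This difference is within a library, so it does not depend on a library's size factor, and being a score over chosen members it has no p.

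GC content differs between the classes, at 41.93% to 43.53% in the 3 alpha genes of chromosome 2, 51.55% in Scn8a and 48.2% to 54.54% in the beta genes. The library with the steepest negative slope on GC, Visudyne 1, had an alpha minus beta value of 1.63, and that with the steepest positive slope, vehicle 9, had the lowest, 0.96. With the GC trend removed the values were 1.33, 1.32, 1.52, 1.38 and 1.34 in Visudyne 1 to 5 and 1.15, 1.20, 1.07, 1.19 and 1.07 in vehicle 6 to 10, so the groups still did not overlap. The alpha mean was then 7.59 ± 0.0908 in Visudyne and 7.59 ± 0.0746 in vehicle, and the beta mean 6.22 ± 0.101 in Visudyne and 6.46 ± 0.0881 in vehicle (SD, n = 5 each). Within the level alpha mean, the fitted log2 fold changes were 0.14 for Scn2a, -0.14 for Scn1a, -0.03 for Scn3a and 0.04 for Scn8a. Those of the beta genes were -0.39 for Scn4b, -0.17 for Scn3b and -0.16 for Scn2b. In this fit 0 members were called higher and 0 lower. The difference of the fitted fold changes was then 0.24, and 0.31 with the slope as a covariate. Visudyne 5 and vehicle 10 had nearly the same slope, 0.0079 and -0.020 log2 CPM per 10 points. Between these libraries Scn2a was at 504.2 and 461.1 CPM, Scn1a at 181.1 and 169.7, Scn3a at 81.88 and 93.5, Scn8a at 135.5 and 141.9, Scn2b at 164.9 and 174.9, Scn3b at 231.1 and 325.3 and Scn4b at 9.23 and 11.3, with alpha minus beta at 1.33 and 1.05. The mean log2 CPM of the alpha genes was 7.48 and 7.49 in this pair and that of the beta genes 6.14 and 6.43, so the alpha genes as a class did not stand higher in it. With 1 library of each group this pair is a description.

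**Figure D4:**
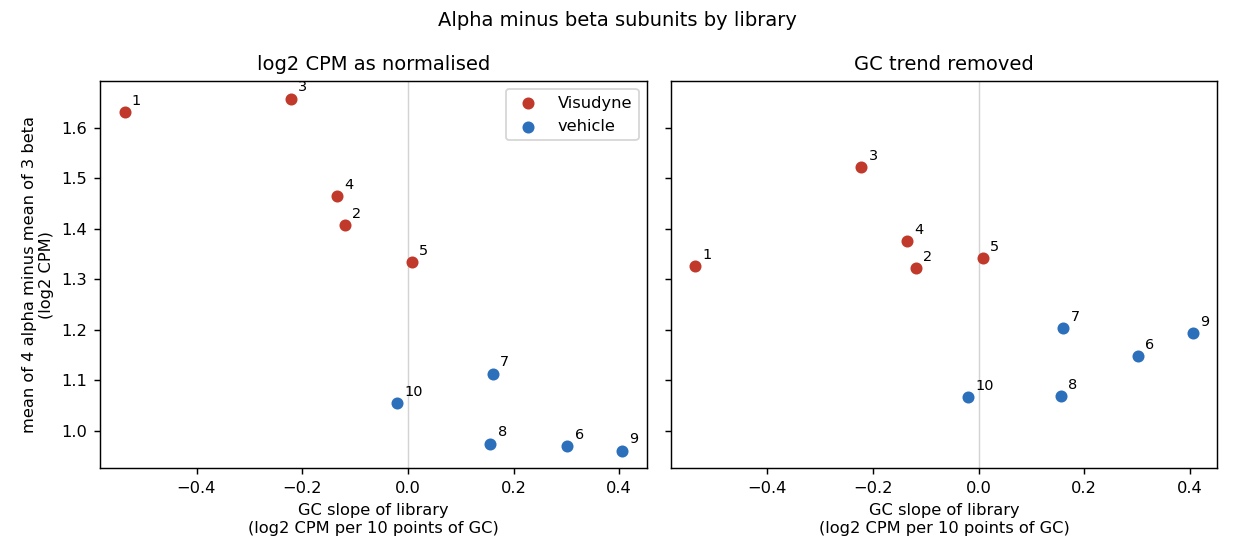
Mean log2 CPM of the 4 alpha genes minus that of the 3 beta genes in each library, against the slope of the library's log2 CPM on gene GC content, with the replicate number beside each point, before (left) and after (right) removal of the GC trend. The Visudyne libraries sit at 1.33 to 1.66 on the left and 1.32 to 1.52 on the right, above the vehicle libraries at 0.96 to 1.11 and 1.07 to 1.20.

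Of 8 other sodium channel genes listed, 5 were tested and 3 were called higher and 0 lower, where 8.98% of all tested genes were higher and 11.5% lower, with a median log2 fold change of 0.22 where that of all tested genes was 0.01. Scn9a, an alpha gene best known from peripheral sensory neurons, averaged 5.79 ± 0.894 CPM for Visudyne and 3.24 ± 0.751 CPM for vehicle (SD, n = 5 each), a 1.79-fold rise (adjusted p = 0.0224), and it was the only one of them called with the GC trend removed (log2 fold change 0.63, adjusted p = 0.0493). Scn7a, which encodes a sodium-sensing channel, rose 1.53-fold, and Nalcn, which encodes the sodium leak channel, 1.16-fold. With the GC trend removed Scn7a was at 0.33 and Nalcn at 0.01 on the log2 scale, neither called, and with the slope as covariate Nalcn was at -0.0023.

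Of 12 tested genes that place channels at the axon initial segment and node, 1 was called higher and 4 lower, where 8.98% and 11.5% of all tested genes were. The list's median log2 fold change was -0.15. Cntnap1, which encodes a protein of the junction beside the node, fell to 0.605 of its vehicle level (adjusted p = 0.0267), Nfasc, which encodes the adhesion molecule neurofascin, to 0.726, and Sptan1, which encodes alpha spectrin, to 0.827. Nrcam, which encodes another adhesion molecule of these sites, rose 1.16-fold. With the GC slope as covariate their log2 fold changes were all near 0, at -0.0306 for Cntnap1, 0.0127 for Nfasc, -0.0163 for Sptan1 and 0.0297 for Nrcam. After removal of the GC trend they were -0.35 for Cntnap1 (adjusted p = 0.053), -0.16 for Nfasc, -0.14 for Sptan1 and 0.07 for Nrcam. In that fit 0 of the 12 were called, where 3.17% of all tested genes were, and the list's median was -0.10. Ank3, which encodes the anchor protein ankyrin-G, averaged 171.4 ± 11.9 CPM for Visudyne and 163.0 ± 19.2 CPM for vehicle (SD, n = 5 each, adjusted p = 0.535), and it is named after its value was seen.

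The fibroblast growth factor homologous factors bind the cytoplasmic tail of alpha subunits and slow their inactivation. All 4 genes were tested, and Fgf14 rose 1.24-fold, at 65.73 to 83.61 CPM in Visudyne and 55.24 to 65.34 CPM in vehicle (adjusted p = 0.0266). Fgf12 at 1.23-fold, Fgf13 at 1.20-fold and Fgf11 at 1.13-fold were not called, at adjusted p = 0.0504, 0.052 and 0.109. Thus 1 of the 4 was called higher, where 8.98% of all tested genes were. With the GC trend removed Fgf14 was at 0.05 on the log2 scale, Fgf12 at 0.09, Fgf13 at 0.20 and Fgf11 at 0.35 (adjusted p = 0.0568). In that fit 0 of the 4 were called, where 3.17% of all tested genes were, and the list's median was 0.15, against 0.28 without the removal.

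Of 17 genes for calmodulin and other channel modulators, 1 was called higher and 2 lower, or 3 of 17 against 20.5% of all tested genes, with a median log2 fold change of 0.04. Calm3, a calmodulin gene, fell to 0.631 (adjusted p = 0.0254) and remained called with the GC trend removed (log2 fold change -0.30, adjusted p = 0.0424), but was at -0.0786 with the GC slope as covariate (adjusted p = 0.903), against -0.66 with neither. Ptprz1, which encodes a receptor phosphatase, rose 1.27-fold, while Rangrf at 0.777 was not called. Of 11 genes for regulators of sodium channel RNA, 2 were called higher, where 8.98% of all tested genes were, and 0 lower, with a median of 0.15. Celf4, which encodes an RNA-binding protein, averaged 345.7 ± 38.3 CPM for Visudyne and 250.4 ± 20.6 CPM for vehicle (SD, n = 5 each), a 1.38-fold rise (adjusted p = 0.0201) or 0.47 on the log2 scale. Removal of the GC trend gave 0.68, which was called, and the slope as covariate gave 0.21 (adjusted p = 0.748). Pum2, which encodes a translational repressor, rose 1.30-fold and was not called with that trend removed. Rest, the repressor of neuronal genes that binds near Scn2a, was at 1.14-fold and Rbfox3 at 0.794, neither called. Of the 12 called genes named from these 5 lists, 0 were called without Visudyne 3, where 0.167% of all tested genes were. Without vehicle 6, 0 of the 12 were called, where 0.0622% of all tested genes were. With the GC trend removed 3 of the 12 (Scn9a, Calm3 and Celf4) were called, where 3.17% of all tested genes were.

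Called markers of neurons went in both directions, and the counts stand against 8.98% of all tested genes called higher and 11.5% lower. Of 12 interneuron markers, 2 were called higher and 3 lower, and the summed level of the list was 660.1 to 802.7 CPM in Visudyne and 619.5 to 682.0 CPM in vehicle. Of 10 pyramidal and granule neuron markers, 1 was called higher and 4 lower, with sums of 919.1 to 1415 CPM in Visudyne and 981.4 to 1132 CPM in vehicle. Of 10 pan-neuronal genes 1 was higher and 2 lower, with sums of 5586 to 6429 CPM in Visudyne and 4683 to 5376 CPM in vehicle, which do not overlap. These sums have the GC trend left in, and the most abundant genes in them, Map2, Snap25 and Syt1, have 41.5% to 44.1% GC. With that trend removed their log2 fold changes were 0.16, -0.08 and 0.0016, none called. Of the 10 pan-neuronal genes 1 was then called higher and 0 lower, where 3.17% of all tested genes were called. Of 8 immature neuron genes 3 were called higher and 1 lower, with sums of 249.7 to 291.0 CPM in Visudyne and 236.6 to 258.2 CPM in vehicle. Of 9 tested oligodendrocyte genes, 0 were called higher and 4 lower, with sums of 2312 to 2771 CPM in Visudyne and 2374 to 3195 CPM in vehicle. Pvalb, the gene of parvalbumin interneurons and named after its value was seen, fell to 0.703 of its vehicle level (adjusted p = 0.0298), a log2 fold change of -0.51. Removal of the GC trend left its log2 fold change at -0.48, which was not called (adjusted p = 0.0552). In that fit 2 of the 12 interneuron markers were called higher and 0 lower, where 3.17% of all tested genes were called. No gene of these lists was at 0 in all libraries, and the part of these cell types in the results above was not tested.

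Scn4b RNA is abundant in striatum, and the striatal markers bear on whether neighbouring tissue was taken along. Their summed level was 18.68 to 33.72 CPM in Visudyne and 19.18 to 32.65 CPM in vehicle, with 0 of 6 tested genes called in either direction. Ppp1r1b, which encodes a phosphatase inhibitor of striatal neurons, averaged 2.49 ± 0.964 CPM for Visudyne and 3.90 ± 0.498 CPM for vehicle (SD, n = 5 each), a fold of 0.642 (adjusted p = 0.0577) close to that of Scn4b. Its log2 fold change was -0.25 with the GC trend removed (adjusted p = 0.383). Penk, the enkephalin gene, was at a fold of 0.830 (adjusted p = 0.145) and the dopamine receptor gene Drd1 at 1.04 (adjusted p = 0.786). These 3 are named after their values were seen, and the part of carried-along striatum in the Scn4b result was not tested. Choroid plexus markers were uneven, with sums of 22.98 to 419.6 CPM in Visudyne and 22.94 to 33.99 CPM in vehicle.

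The genes whose profile over the 10 libraries was most like a member's were found among 11565 protein-coding genes by the root mean square difference of centred log2 CPM. For Scn2a these were Ncam2, at a difference of 0.0349, and Kcnd3, a potassium channel gene, at 0.0393, where the profile of Scn2a itself has a root mean square of 0.198. For Scn2b they were Tef at 0.0299 and Dnaja3 at 0.0302, against 0.145 for the gene itself, and for Scn4b they were Lgi3 and Slfn2, both at 0.137, against 0.388. Scn3a was closest to Tcf4 at 0.0298 and Pggt1b at 0.0449, and Scn1a to Pik3cb at 0.039 and Hecw1 at 0.0444. Scn8a was closest to Sipa1l1 at 0.0487 and Nfix at 0.0507, and Scn3b to Hebp1 at 0.0416 and Cap2 at 0.052. Among the members themselves the nearest pair was Scn2a and Scn3a, at 0.109, and the farthest Scn2a and Scn4b, at 0.571. Scn8a was nearer to the beta gene Scn2b, at 0.123, than to any alpha gene, at 0.15 to 0.268. All these distances are from log2 CPM with the GC trend left in, and they were not computed with it removed. GC content is 51.55% in Scn8a and 50.43% in Scn2b, against 41.93% to 43.53% in the other alpha genes. With the GC trend removed the fitted log2 fold changes were 0.04 for Scn8a and -0.16 for Scn2b. Those of Scn2a and Scn3a were 0.14 and -0.03. Nearness in these distances may thus follow GC content, which was not tested.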

How the data were processed

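Total RNA of whole hippocampus was measured in 10 libraries. The labels' protocols name a stranded kit for total RNA, and the tools named per the submitters' processing notes are FastQC and Salmon, with build mm10. Annotation, strand setting and rounding are not stated in these sources. The values are estimated counts per gene that the authors deposited as whole numbers, 1 column per library, used unchanged. Symbols, positions, exon lengths and GC content (over all annotated transcript bases) came from GENCODE M21 on GRCm38, which held 27053 of the 27343 Ensembl IDs of the table.

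Visudyne was set against vehicle by edgeR 4.0.16 under R 4.3.3, using its quasi-likelihood test after filterByExpr and TMM (no covariates, two-sided, adjusted over all tested genes), after the script had been tested on simulated data. SE is the log2 fold change divided by the square root of F. Alternatives used limma 3.58.1, DESeq2 1.42.0, sva 3.50.0 and a loess of span 0.3 on GC content and exon length. Members and lists were chosen with earlier results of these data known. The text names the 7 members, up to 4 genes with the smallest p per pathway list, and the 2 most alike genes per member. Some genes that this rule selects are not reported here. Coding sequences compared are from GENCODE M21 and promoters from RefSeq. Pairs of libraries in a group differed beyond sampling noise (chi-square per degree of freedom at least 13.5). The labels do not say that each library is a separate animal, so p-values measure the spread between these samples.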

Additional observations from a re-analysis of the deposited data

Results flagged for a closer look

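Among 58 sets of 5 libraries checked for a value far from the rest, 1 was flagged, where chance flags about 1 in 20. Scn3a stood at 93.5 CPM in vehicle 10, and the next vehicle library was at 86.5 CPM.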

How the results depend on the processing

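No paired analysis was possible because the groups share no replicate number. With total counts in place of TMM, 0 members were called higher and 4 lower (Scn8a, Scn2b, Scn3b and Scn4b), and Scn1a (-0.13), Fgf11 (-0.0296) and Rest (-0.014) turned negative. Without a filter on low counts 1 member was called lower, and DESeq2 called 2 higher. With the GC trend removed, GC and length trends removed, the GC slope as a covariate or 1 surrogate variable, 0 were called higher and 0 lower, and alpha minus beta was 0.24, 0.24, 0.31 and 0.36. Over all genes those 4 fits called 505, 641, 0 and 1, with 1032 and 2295 at an unadjusted p under 0.05 in the last pair. No filter called 2075, DESeq2 4480 and total counts 196 higher and 3902 lower. Signs turned for Scn1a in these 4 fits (-0.14, -0.14, -0.0256 and -0.0149), and in the first 3 for Scn3a (-0.0262, -0.0318 and -0.0061), Scn8a (0.0395, 0.0323 and 0.0151) and Rbfox3 (0.13, 0.13 and 0.11). With the slope they turned for Nalcn (-0.0023) and Nfasc (0.0127). Leaving out a library gave 0 to 2 members higher, 0 to 2 lower and 0.45 to 0.52 for alpha minus beta. Over all genes these fits called from 10 (without vehicle 6) to 5047 (without Visudyne 5). The cause was not tested. No member reversed in the other settings, and depth limits Scn4b most, at 202 to 664 counts.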

Other observations

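Per kilobase of exon, the ratio of Scn2a to Scn8a RNA was 4.14 to 5.06 in the Visudyne libraries and 2.72 to 4.03 in the vehicle libraries, without overlap. With the GC trend of each library removed it was 3.81 to 4.63 in Visudyne and 3.396 to 4.05 in vehicle, and the groups overlapped. The ratio of Scn2a to Scn4b was 21.37 to 37.45 in Visudyne and 10.15 to 15.96 in vehicle, highest in Visudyne 3. Summed per kilobase, beta RNA was 84.76 ± 3.5 CPM per kb in Visudyne and 96.95 ± 4.97 in vehicle, and alpha RNA 79.74 ± 5.55 in Visudyne and 69.01 ± 3.12 in vehicle (SD, n = 5 each). Within the beta genes, Scn4b made up 1.49% to 2.33% in Visudyne and 2.28% to 3.26% in vehicle, where Visudyne 4 and 5 lay above vehicle 10. These ratios were computed after the values were seen and carry no test.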
